A study of Mus musculus with 12 samples.

Results

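AP-1 is a transcription factor made of pairs of proteins of the Fos and Jun families. The 7 genes that encode these proteins in the mouse, Fos, Fosb, Fosl1, Fosl2, Jun, Junb and Jund, were followed here among the 55536 gene IDs counted in each library. They were found by their gene symbols, and all 7 had a row in every file and passed the filter on low counts. The cells were embryonic fibroblasts of the mouse (MEF), connective tissue cells in culture. One arm was kept for 6 h with 100 nM halofuginone (HF), an inhibitor of prolyl-tRNA synthetase, and the control arm for 6 h without it, both in high-glucose medium with dialyzed serum. Total RNA and ribosome footprints (fragments of mRNA protected by a ribosome) were each read in 3 HF and 3 control libraries. The labels give no genotype, strain or passage of the fibroblasts and do not say that replicates were separate cultures, so p-values rest on a spread between libraries that may be technical.

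Proteins of both families carry a basic region that contacts DNA and a leucine zipper that joins them in pairs. Jun proteins pair with each other or with a Fos protein, while Fos proteins need a Jun partner. In fibroblasts the Fos, Fosb and Junb genes are known as immediate early genes, which are switched on within minutes by serum, growth factors or stress, Fosl1 and Fosl2 as later responders, and Jund as a gene that resting cells already express. Many of these mRNAs are short-lived, and MAP kinase signalling acts both on the promoters and on the proteins.

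HF libraries held 1017651 to 1697554 counts in total RNA and 562794 to 1958356 in footprints, against 718096 to 1295434 and 724609 to 2527791 in control libraries. Values are given as CPM, counts per 1e6 after scaling of the libraries by TMM factors, and as log2 fold changes of HF over control from edgeR's quasi-likelihood test, with Benjamini-Hochberg adjusted p-values over all genes tested and a threshold of 0.05. The cells carried fibroblast markers, with a summed level of 9397 to 9713 CPM in HF and 7833 to 8190 CPM in control RNA over 12 markers, although Lum had 0 counts and Dcn 14 over all 12 libraries together. Fn1, which encodes fibronectin, averaged 4979 ± 137 CPM in HF and 1540 ± 14.5 CPM in control RNA, while Col1a1, Col1a2, S100a4 and Pdgfrb fell, and in footprints the markers summed to 12393 to 12734 CPM in HF and 15973 to 16942 CPM in control cells. The 8 epithelial markers summed to at most 1.96 CPM in HF and 1.05 CPM in control RNA, and the 8 leukocyte markers to at most 9.82 and 19.7 CPM. The 6 endothelial markers, mostly Kdr, summed to 5.28 to 16.7 CPM in HF and 0 to 1.61 CPM in control RNA. The 8 muscle and neural markers, mostly Nes, summed to 318 to 347 CPM in HF and 321 to 361 CPM in control RNA. Of these, Myod1, Myog, Des and Acta1 had 2, 0, 2 and 15 counts over all 12 libraries together, against 4577 for Nes. The part of these other markers in the results was not tested. In such bulk samples a gene expressed by more cells and one with more RNA per cell cannot be told apart.

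The promoters of Fos, Fosb, Jun and Junb are shown here, and they differ in the letters they carry next to the RefSeq start of transcription. Whether these letters bear on the changes given below was not tested. RefSeq (build GRCm38.p6) had a promoter entry for 6 of the 7 members. The 130 bases before the RefSeq start are printed 5′ to 3′ for 4 of them, on the strand of the gene, with capitals for every match, on either strand, to the motif TGACG, the TATA box TATAAA, the CCAAT box and the motif TGACATCA.
Fos, chr12:85473760-85473889, plus strand: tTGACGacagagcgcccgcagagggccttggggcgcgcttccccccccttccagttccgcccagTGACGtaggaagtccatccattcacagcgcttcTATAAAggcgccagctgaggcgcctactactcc
Fosb, chr7:19310046-19310175, minus strand: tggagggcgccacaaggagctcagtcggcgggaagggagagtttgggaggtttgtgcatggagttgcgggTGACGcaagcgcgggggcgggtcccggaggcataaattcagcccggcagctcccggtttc
Jun, chr4:95052223-95052352, minus strand: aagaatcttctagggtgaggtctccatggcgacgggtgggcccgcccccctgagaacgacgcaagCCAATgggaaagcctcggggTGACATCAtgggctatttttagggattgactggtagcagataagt
Junb, chr8:84978749-84978878, minus strand: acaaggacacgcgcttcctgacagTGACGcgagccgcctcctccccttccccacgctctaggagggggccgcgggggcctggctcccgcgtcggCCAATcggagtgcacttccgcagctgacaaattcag

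TGACG is one side of the cyclic AMP response element, which CREB and ATF proteins bind. In Fos it stood at bases 66 to 62 before the start and again at 129 to 125, in Fosb at 60 to 56 and in Junb at 106 to 102. Positions are counted from the RefSeq start, and whether transcription starts there in these cells was not tested. Over the 250 bases before the start, TGACG was found in 3 of the 6 member promoters and in 17.77% of 32851 RefSeq promoters. TGACATCA, known from the human JUN promoter as a site for AP-1 itself, stood at bases 45 to 38 in Jun and was found in 2.93% of all promoters. TATAAA was found in Fos among the 6 members and in 12.37% of all promoters, and CCAAT in Jun and Junb and in 33.85%. The canonical AP-1 site TGANTCA (6.75% of all promoters), the full element TGACGTCA (1.55%, which contains TGACG) and the CArG box that serum response factor binds (1.47%) were found in 0 of the 6 windows, which says only that these letters are not in the bases searched.

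Total RNA shows how the transcripts of the 7 genes differed after 6 h with HF. All 7 rose in total RNA, where 43.7% of the 9145 genes tested passed the threshold, 22.2% higher and 21.4% lower in HF, by log2 changes from 0.72 for Jund to 6.25 for Fos. For each member every HF library lay above every control library, which was so for 25.9% of all genes tested. Fos and Fosb passed the filter on low counts only through their HF libraries, so their calls follow in part from the filter, while the other 5 members passed it in all 3 control libraries as well.

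**Figure D1:**
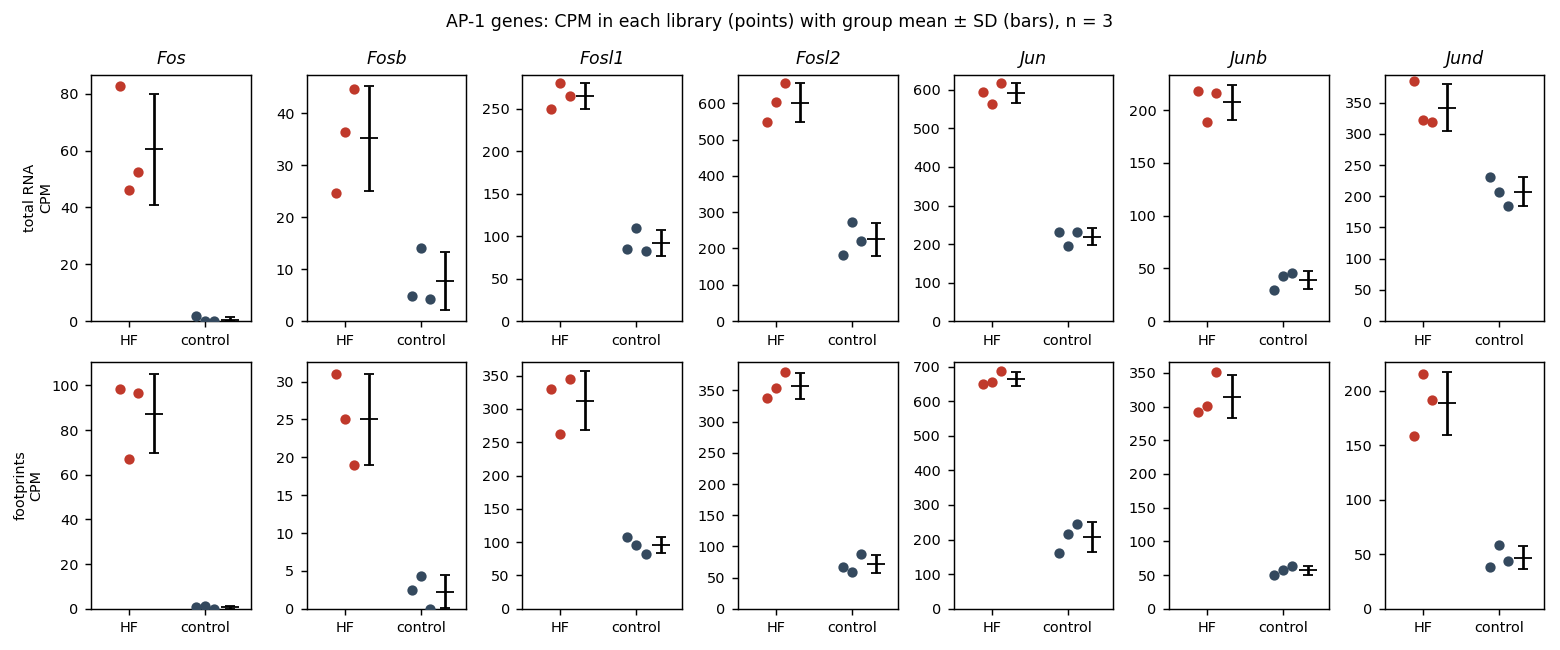
CPM of the 7 AP-1 genes in each library, total RNA in the upper row and footprints in the lower row, HF left of control, with points for single libraries and bars for the mean ± SD of 3 libraries. In every panel the HF points lie above the control points, and the gap is narrowest relative to the level for Jund in total RNA.

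Fos, which encodes the founding member of its family (ENSMUSG00000021250, chromosome 12 from 85473890 to 85477274), had 82.7, 46.2 and 52.4 CPM in HF RNA, against 1.61, 0 and 0 CPM in control RNA. The control libraries were almost empty of it, with 2 reads in all, both in RNA control 1, against 230 in HF. Scaled for depth, the counts were 86.7-fold higher in HF, with an exact interval of 23.7 to 720 that covers counting error only. Low counts in these files are mostly even numbers, and an interval from halved counts ran from 15.2 to 3452. edgeR's adjusted p was 1.25e-14. Without RNA control 1 the controls hold 0 reads, and Fos was 33.1-fold higher against an assumed floor of 3 counts over the group. That floor takes each count as a separate read, so with low counts mostly even the true bound may be lower. Fosb, a close relative of Fos (ENSMUSG00000003545, chromosome 7 from 19302696 to 19310118), had 24.6, 36.3 and 44.7 CPM in HF RNA, against 4.83, 14.1 and 4.20 CPM in control RNA. Its groups did not overlap, the highest control being RNA control 2, and the log2 change was 2.31 (SE 0.45, edgeR adjusted p = 2.08e-05) or 2.94 without that library.

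The later responders of the Fos family were read at higher depth. Fosl1, which encodes FRA1 (ENSMUSG00000024912, chromosome 19 from 5447698 to 5455938), had 250, 280 and 264 CPM in HF RNA, against 84.5, 110 and 81.9 CPM in control RNA. All 3 HF values were at least 2.27-fold above the highest control, and the log2 change was 1.54 (SE 0.15, edgeR adjusted p = 4.23e-14). Ccdc85b overlaps the end of Fosl1 in the RefSeq annotation, and without a stated use of strand reads of the overlap cannot be assigned. Ccdc85b was at −1.46 in total RNA (SE 0.27, edgeR adjusted p = 8.26e-06) and at −1.66 in footprints (adjusted p = 0.00388). Fosl2, which encodes FRA2 (ENSMUSG00000029135, chromosome 5 from 32136472 to 32157840), had 548, 603 and 655 CPM in HF RNA, against 183, 272 and 219 CPM in control RNA. It rose by 1.44 on the log2 scale (SE 0.12, edgeR adjusted p = 3.07e-17), close to the change of Fosl1.

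The Jun genes ran from 0.72 to 2.45 on the log2 scale in total RNA. Junb, often an antagonist of Jun (ENSMUSG00000052837, chromosome 8 from 84976909 to 84978748), had 218, 189 and 216 CPM in HF RNA, against 29.0, 42.3 and 45.2 CPM in control RNA. This was a log2 change of 2.45 (SE 0.19, edgeR adjusted p = 3.15e-18). Jun, the main activating member of its family (ENSMUSG00000052684, chromosome 4 from 95049036 to 95052222), had 595, 564 and 618 CPM in HF RNA, against 232, 195 and 232 CPM in control RNA, a log2 change of 1.42 (SE 0.11, edgeR adjusted p = 5.06e-18). Jund, the member that resting cells already express (ENSMUSG00000071076, chromosome 8 from 70697739 to 70700616), had 385, 322 and 318 CPM in HF RNA, against 230, 207 and 184 CPM in control RNA. Its libraries did not overlap either, but the lowest HF library was only 1.38-fold above the highest control, and the log2 change was 0.72 (SE 0.12, edgeR adjusted p = 1.37e-06).

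When the count ratio of a pair of genes is compared between arms, gene length cancels. It does not cancel in a gene's share of the counts of its family. Shares are thus of raw counts, and how they shift between arms depends in part on the lengths. Counts of Junb per count of Jund in total RNA were 0.566, 0.585 and 0.678 in HF libraries, against 0.126, 0.204 and 0.246 in control libraries. Jun per Jund was 1.54, 1.75 and 1.94 in HF libraries, against 1.01, 0.939 and 1.26 in control libraries, again without overlap. Jund thus held 29.9% ± 2.26 of the Jun family counts in HF RNA and 44.5% ± 3.99 in control RNA, while Junb held 18.2% ± 0.602 and 8.41% ± 2.17 (SD, n = 3 each). Within the Fos family, Fos took 6.36% ± 2.41 of the counts in HF RNA and 0.196% ± 0.340 in control RNA, a control value from the 2 reads of RNA control 1, without which it was 0. Fosl2 held 62.5% ± 1.94 in HF RNA and 69.1% ± 2.55 in control RNA, without overlap, whereas the share of Fosl1, 27.5% ± 1.49 in HF and 28.5% ± 2.13 in control RNA, overlapped between the arms.

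Footprints report the ribosomes on these mRNAs, here as a level relative to the average gene. All 7 members also rose in footprints, where 43.3% of 8375 protein-coding genes passed, 22.4% higher and 20.9% lower in HF, and here Jund and Fosl2 changed more than in total RNA. In each member the HF libraries lay above the control libraries, which was so for 25.2% of the genes tested. Again Fos and Fosb passed the filter on low counts only through HF libraries.

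Fos had 98.5, 66.9 and 96.7 CPM of footprints in HF cells, against 0.811, 1.23 and 0 CPM in control cells, from 266 and 4 reads. The scaled counts were 110-fold higher in HF, with an interval of 42.5 to 407, or 29.9 to 919 from halved counts (edgeR adjusted p = 7.8e-14). Fosb had 30.9, 25.1 and 19.0 CPM in HF footprints, against 2.43, 4.29 and 0 CPM in control footprints (log2 change 3.24, SE 0.57, edgeR adjusted p = 2.58e-05). Both genes were thus near 0 in the control footprints and clearly read in each HF library. Fosl1 had 330, 263 and 345 CPM in HF footprints, against 107, 96.2 and 82.9 CPM in control footprints, a log2 change of 1.68 (SE 0.15, edgeR adjusted p = 5.8e-11). Fosl2 had 338, 355 and 379 CPM in HF footprints, against 67.7, 59.4 and 87.1 CPM in control footprints. The lowest HF library of Fosl2 was 3.88-fold above its highest control library, compared with 2.01-fold in total RNA, and the log2 change was 2.36 (SE 0.15, edgeR adjusted p = 2.49e-14).

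Junb had 293, 301 and 351 CPM in HF footprints, against 49.5, 58.2 and 63.2 CPM in control footprints, a log2 change of 2.49 (SE 0.16, edgeR adjusted p = 1.97e-14) that lay close to its RNA change. Jun had 649, 656 and 686 CPM in HF footprints, against 161, 216 and 244 CPM in control footprints (log2 change 1.71, SE 0.13, edgeR adjusted p = 6.52e-13). Jund had 159, 216 and 191 CPM in HF footprints, against 38.5, 58.8 and 43.5 CPM in control footprints. Jund, with the smallest RNA change of the 7, had a footprint change of 1.98 (SE 0.19, edgeR adjusted p = 5.67e-10), larger in value than those of Jun and Fosl1. In footprints its share of the Jun family counts was 16.1% ± 2.05 in HF and 15.2% ± 2.65 in control cells (SD, n = 3 each), and the ratio of Junb to Jund counts, 1.84, 1.40 and 1.83 in HF against 1.28, 0.990 and 1.45 in control libraries, overlapped. Other balances of raw counts did shift in footprints. Junb held 26.9% ± 1.47 of the Jun family footprints in HF cells and 18.5% ± 1.25 in control cells, Jun held 56.9% ± 1.78 and 66.4% ± 2.81, and Junb per Jun was 0.451, 0.459 and 0.511 in HF libraries, against 0.307, 0.270 and 0.259 in control libraries. In the Fos family Fosl1 held 39.8% ± 2.42 of the footprints in HF cells and 56.2% ± 6.47 in control cells. None of these 4 measures overlapped between the arms.

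**Figure D2:**
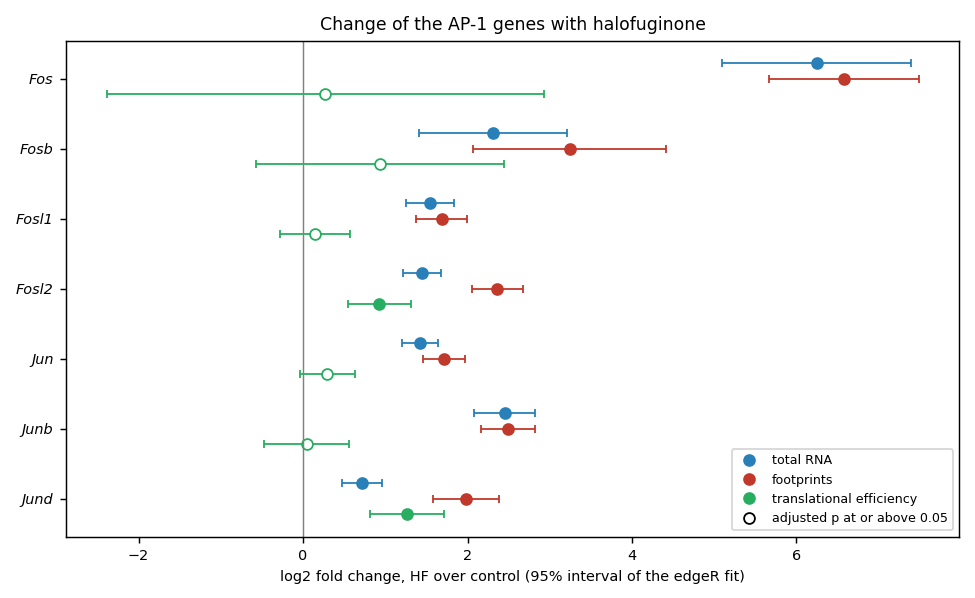
Log2 fold changes of HF over control for the 7 AP-1 genes in total RNA, footprints and translational efficiency, with 95% intervals of the edgeR fit and open symbols for adjusted p-values at or above 0.05. Total RNA and footprint changes are above 0 for all 7 genes, while translational efficiency passed for Fosl2 (0.93) and Jund (1.27).

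Translational efficiency, the footprints relative to total RNA, was tested in 1 edgeR model of the 12 libraries, through the term by which the HF effect differs between footprints and RNA. Neither protein nor the speed of ribosomes was measured, so a gain here is one of footprints per RNA only. Jund and Fosl2 rose in translational efficiency, and the other 5 members did not pass. Of 7922 genes tested 14.4% passed, 6.13% higher and 8.23% lower in HF. Jund footprints gained 1.27 on the log2 scale over its RNA (SE 0.22, interval 0.82 to 1.72, edgeR adjusted p = 4.06e-05). Its ratio of footprint CPM to RNA CPM was 0.552 in HF cells and 0.227 in control cells. Fosl2 gained 0.93 (SE 0.19, interval 0.55 to 1.31, edgeR adjusted p = 0.000381), with ratios of 0.594 in HF and 0.318 in control cells.

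For the other members the intervals say how large a difference these data allow. Jun was at 0.30 (interval −0.03 to 0.63, edgeR adjusted p = 0.251), Fosl1 at 0.15 (−0.28 to 0.58, adjusted p = 0.72) and Junb at 0.04 (−0.47 to 0.56, adjusted p = 0.945). Gains as large as that of Jund thus lie outside these 3 intervals, although differences between members were not tested. Fosb at 0.93 (−0.57 to 2.44, edgeR adjusted p = 0.467) and Fos at 0.27 (−2.39 to 2.93, adjusted p = 0.934) had too few control reads for a narrower statement, and Fos was at −2.85 without RNA control 1.

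**Figure D3:**
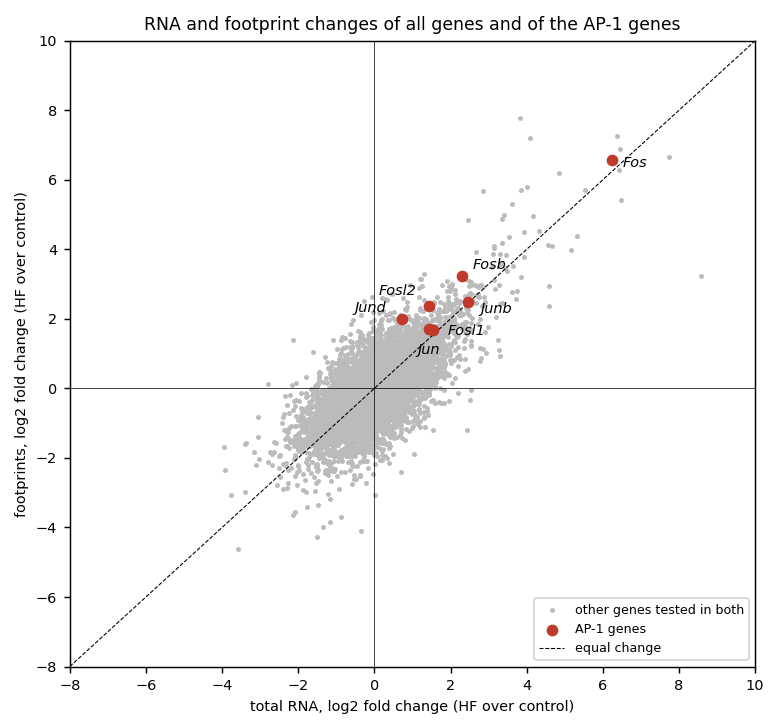
Log2 fold change (HF over control) in total RNA on the horizontal axis and in footprints on the vertical axis for genes tested in both, with the AP-1 genes in red and a dashed line for equal change. Fos (a fitted value that rests on 2 and 4 control reads) lies far out near the line, Junb, Jun and Fosl1 lie near it, and Jund, Fosl2 and Fosb lie above it.

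The 12-library profiles, log2 CPM relative to the control mean of each assay, show which other genes ran most nearly alike. Likeness is given as the root mean square difference over the 12 libraries, and the candidates were 7916 protein-coding genes read at sufficient depth. Jun and Fosl1 were the closest pair of members, 0.27 apart, while Fos was at least 1.90 from every other member. Nearest to Jun were Phlda1 (0.11) and the linker histones Hist1h1d (0.13) and Hist1h1b (0.14), with a median of 1.19 over all candidates. Fosl1 was nearest to Atf6 (0.13), a transcription factor of the endoplasmic reticulum stress response, Iqgap1 (0.14), a scaffold protein, and Ccn2 (0.16), a secreted matricellular protein. Junb lay nearest to Klf6 (0.17), a zinc finger factor, Hist1h1a (0.19) and Csrnp1 (0.21). Near Fosl2 were Coq10b (0.20) and Cebpb (0.20), a bZIP factor, and for Jund the nearest were the kinase gene Csnk1e (0.19), H1f0 (0.23) and Hist1h3g (0.25). Csnk1e, chosen by its likeness to Jund in these same libraries, was at 0.63 in total RNA and 1.71 in footprints. Fos and Fosb had looser neighbours, Il11 (0.55), a cytokine, Txnip (0.68) and Gadd45g (0.72) for Fos, and Zfp36l1 (0.36), Zfp408 (0.52) and Inhba (0.53) for Fosb.

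Other bZIP genes that can pair with Fos or Jun proteins mostly rose as well, in a list also chosen with earlier results of these data known. Of 12 listed partners 8 were tested in total RNA, of which 6 rose and 1 fell, against 22.2% and 21.4% of all genes (median 1.17, against −0.02 over all genes). Atf3, which encodes a stress-induced partner of Jun proteins, averaged 201 ± 31.9 CPM in HF RNA and 9.89 ± 1.56 CPM in control RNA (log2 change 4.32, edgeR adjusted p = 1.35e-24). Maff, a small Maf protein, averaged 352 ± 10.4 CPM in HF RNA and 53.0 ± 10.1 CPM in control RNA (log2 change 2.72, edgeR adjusted p = 1.19e-24). Atf2, a partner of Jun, rose by 1.00, Mafk by 1.34 and Mafg by 0.95. Maf averaged 5.27 CPM in control RNA, under the filter's cutoff of 9.15 CPM, so its control libraries alone would not have passed the filter. Atf3, at 9.89 ± 1.56 CPM in control RNA and 9.09 ± 5.52 CPM in control footprints, lay near the cutoffs of 9.15 and 8.41 CPM. With this spread not all 3 control libraries reached either cutoff, so the calls of Atf3 follow in part from the filter. The calls of Maf (1.91, edgeR adjusted p = 0.00572; 0.0635 at a change of 1.57 without RNA control 1, and a change of 3.32 without RNA control 3) and of Atf7, which was lower at −0.45 (adjusted p = 0.0422; 0.212 without RNA control 3, with the call also lost without RNA control 2 or any single HF library), were fragile. In footprints, where 22.4% of genes rose, 5 of 5 tested partners rose, with Atf7, Jdp2 and Maf under the filter on low counts. Only 3 of 5 were called in DESeq2, and 3 of 5 without RPF control 1, RPF control 2 or RPF HF 1. Atf2 and Mafk lost their calls without any of these 3 libraries. Without RPF control 3, RPF HF 2 or RPF HF 3, 7 partners were tested and 5 were called. In translational efficiency the 5 partners tested had changes from −0.23 (Atf2, edgeR adjusted p = 0.734) to 0.39 (Mafg, adjusted p = 0.484).

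Genes known as AP-1 targets moved mostly in the same direction as the factors. The list was chosen with earlier results of these data known, so its counts describe these genes and test nothing. Of 25 listed targets 20 were tested, of which 14 rose and 3 fell in total RNA (median 1.21, with 22.2% of all genes higher and 21.4% lower). In footprints 16 rose and 3 fell (median 1.57, with 22.4% of all genes higher and 20.9% lower), and the median over all genes was −0.02 in both assays. Timp1 and Lox lost their RNA calls when single libraries were left out (edgeR adjusted p of up to 0.255 and 0.124). Hmox1 and Plau so lost their footprint calls (edgeR adjusted p of up to 0.233 and 0.0902). DESeq2 called 15 of 20 in total RNA and 18 of 20 in footprints. The matrix metalloproteinases Mmp3, Mmp9, Mmp10 and Mmp13, textbook AP-1 targets, and the cytokine Il6 were under the filter in both assays. Ptgs2, the inducible cyclooxygenase, averaged 1674 ± 31.5 CPM in HF RNA and 153 ± 25.2 CPM in control RNA (log2 change 3.46, edgeR adjusted p = 6.4e-39). Hbegf, a ligand of the EGF receptor, averaged 801 ± 48.7 CPM in HF RNA and 135 ± 24.1 CPM in control RNA. The matrix protein tenascin, encoded by Tnc, averaged 704 ± 5.72 CPM in HF RNA and 161 ± 24.0 CPM in control RNA. Lif, a cytokine, averaged 172 ± 11.1 and 19.6 ± 6.48 CPM in HF and control RNA, and its footprint change was 4.08, or 4.95 without RPF control 1. Fst, which encodes the activin antagonist follistatin, averaged 45.3 ± 7.31 CPM in HF RNA and 2.47 ± 2.20 CPM in control RNA, with a log2 change of 4.00, and its footprint change was 5.80, or 4.83 without RPF control 1 and 6.52 without RPF control 3. Ereg, an EGF receptor ligand, rose by 2.01 in total RNA and 2.94 in footprints. Areg, another EGF receptor ligand, averaged 38.8 ± 6.23 CPM in HF RNA and 3.28 ± 2.93 CPM in control RNA, with a log2 change of 3.73, which was 2.99 without RNA control 1 and 4.33 without RNA control 2. The control means of Fst and Areg in total RNA lay under the filter's cutoff of 9.15 CPM. Those of Lif (3.66 CPM) and Fst (1.34 CPM) in footprints lay under its cutoff of 8.41 CPM. Areg averaged 8.88 ± 5.80 CPM in control footprints, a spread at which not all control libraries reached that cutoff. In these assays the control libraries of Fst, Areg and Lif alone would not have passed the filter. These calls, counted above among the targets that rose, thus follow in part from it. Against this direction, Ccnd1, which encodes cyclin D1, fell by 1.70 in total RNA (edgeR adjusted p = 8.73e-22) and by 0.90 in footprints, and Spp1, which encodes osteopontin, fell by 0.62 and 0.45. In translational efficiency 4 targets rose and 1 fell of 20, where 6.13% of all genes were higher and 8.23% lower, but only 3 were called in all without RNA control 3, RNA HF 2 or RPF control 2. Vegfa (1.21, edgeR adjusted p = 0.00162), Ccnd1 (0.81) and Tnc (0.61) kept their calls when any single library was left out. Ereg, at 0.95 (edgeR adjusted p = 0.0458), and Lox, an enzyme gene of collagen crosslinking at −0.66 (adjusted p = 0.0382), did not, with adjusted p-values of up to 0.164 and 0.113.

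**Figure D4:**
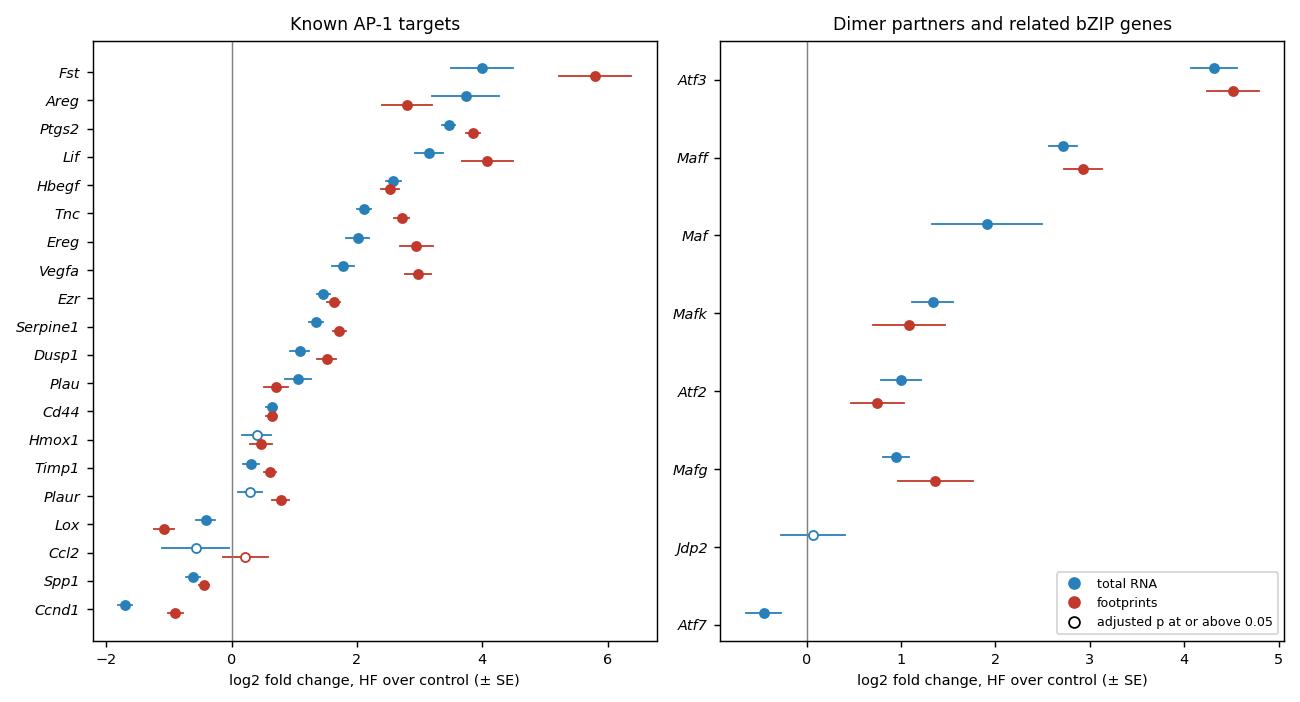
Log2 fold change of HF over control (± SE) for tested genes of the list of known AP-1 targets (left) and of dimer partners (right), in total RNA and footprints, with open symbols for adjusted p-values at or above 0.05. Most points lie right of 0, with Ccnd1, Spp1, Lox and the open total RNA point of Ccl2 among the targets and Atf7 among the partners left of it.

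Among genes that act upstream of AP-1, 20 of 25 listed kinases of the MAP kinase cascades were tested, with 3 higher and 3 lower in total RNA (median 0.02) and 1 higher and 5 lower in footprints (median −0.17). Over all genes the shares were 22.2% higher and 21.4% lower in total RNA and 22.4% and 20.9% in footprints. Mapk3, which encodes ERK1, fell by 1.26 in total RNA and by 1.03 in footprints, and Map2k2, its upstream kinase MEK2, fell by 1.29 and 1.43 (edgeR adjusted p = 1.56e-09 in RNA). Map2k1, which encodes MEK1, fell by 0.78 in footprints, while its RNA change of −0.49 lost its call without any of 4 of the 6 libraries (edgeR adjusted p of up to 0.237). The 3 kinase genes called higher in total RNA each lost the call without 1 or more libraries. Rps6ka5, which encodes MSK1, was at 1.86 (edgeR adjusted p = 0.0819 without RNA control 1 and 0.0524 without RNA HF 2, and a change of 2.64 without RNA control 3). Its control mean of 4.54 CPM lay under the filter's cutoff of 9.15 CPM in total RNA. Map2k4, a kinase gene of the JNK branch, was at 0.50 (edgeR adjusted p = 0.0608 without RNA control 3) and Map3k20 at 0.52 (adjusted p = 0.0952 without it). Map3k20 was at 0.62 in footprints (edgeR adjusted p = 0.0918 without RPF control 2). Map2k3, a kinase of the p38 branch, was at 0.25 in total RNA (edgeR adjusted p = 0.0605) and fell in footprints by 0.84, with a lower translational efficiency (−1.09, adjusted p = 4.25e-05). Among 13 factors that bind Fos and Jun promoters, or their cofactors, 11 were tested and 1 was called in total RNA, where 43.7% of all genes were called. This was Elk3, a ternary complex factor, at −1.24 (edgeR adjusted p = 1.33e-10). In footprints 4 of these were called higher and 2 lower, with 22.4% and 20.9% over all genes, and 3 in all were called without RPF control 2 or RPF HF 1. Mef2a, at 0.90, and Elk3, at −1.02, kept their calls when any single library was left out. Creb1 (0.78), Atf1 (0.77), Elk1 (1.48) and Stat3 (−0.65) did not. Elk1 averaged 6.32 CPM in control footprints, under the filter's cutoff of 8.41 CPM. Elk4, another ternary complex factor gene, was called in translational efficiency at 1.39 (edgeR adjusted p = 0.0258), lost the call without any of 4 libraries (up to 0.187 without RPF HF 3) and was at 2.05 without RPF control 1. Srf, the serum response factor, was at −0.16 in total RNA (adjusted p = 0.497) and at −1.13 in footprints (adjusted p = 0.0548).

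Proteins that act on AP-1 proteins or on AU-rich mRNAs such as that of Fos had 4 of 13 genes higher and 2 lower in total RNA, with 22.2% and 21.4% over all genes. In footprints 4 of 11 were higher and 2 lower, with 22.4% and 20.9% over all genes, so these counts were near the shares over all genes. The mRNA decay factor gene Zfp36l1 rose by 1.91 in total RNA (edgeR adjusted p = 4.85e-06) and by 3.08 in footprints. Its relative Zfp36l2 was at −0.18 in total RNA (edgeR adjusted p = 0.254) and rose by 1.32 in footprints, with a gain in translational efficiency of 1.51 (adjusted p = 1.23e-06), and Zfp36 rose by 2.02 in footprints. In control footprints Zfp36 averaged 8.36 ± 2.53 CPM and Zfp36l1 10.5 ± 4.38 CPM, against the filter's cutoff of 8.41 CPM. With this spread not all control libraries of either gene reached it, so both footprint calls follow in part from the filter. In control RNA Zfp36l1 averaged 14.6 ± 9.36 CPM, against a cutoff of 9.15 CPM. The deacetylase gene Sirt1 rose by 1.96 in total RNA and 0.98 in footprints. Khsrp, a decay factor gene, fell by 0.80 in footprints. In translational efficiency Sirt1 was at −0.95 and Khsrp at −0.58, and both lost the call when single libraries were left out (edgeR adjusted p of up to 0.0828 and 0.0774). The RNA calls of Itch (0.45) and Hnrnpd (0.37) were also lost when single libraries were left out (edgeR adjusted p of up to 0.294 and 0.102). Men1, which encodes menin, a partner of JunD protein, fell by 0.82 in total RNA (edgeR adjusted p = 9e-05) and by 0.69 in footprints (adjusted p = 0.00264).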

How the data were processed

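Total RNA and ribosome footprints of MEF were read in 12 libraries, grouped by the library titles. Per the submitters' processing notes the tools were Bowtie, HISAT2 and HTSeq and the build GRCm38. The authors deposited raw whole-number counts of reads per gene. No source used here gives the counted feature, the use of strand or the treatment of multi-mapping reads. Of 55536 IDs, 55450 had a symbol and 21412 were protein-coding by RefSeq, and 0 entries named no gene. R 4.3.3 with edgeR 4.0.16 was used (TMM, filterByExpr with a minimum count of 10, quasi-likelihood test), on all genes for total RNA and on protein-coding genes for footprints and translational efficiency, and the scripts were tested on simulated data. Precision is limited by depth, and intervals of counts cover counting error only. Scaling makes each change one against the average gene. Alternatives were DESeq2 1.42.0, other factors and filters, a replicate block and leaving out each library. Coding lengths were not used, so family shares are of raw counts and are compared only between arms. Even so, the size of a shift in a share depends on the lengths.

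Members and lists were chosen with earlier results of these data known. Named genes were the members, up to 6 called genes per list (markers are mostly given as sums) and comparison with the largest changes (mean log2 CPM 3 or more), and the 3 nearest profiles per member (prior count 2). A few of these are not reported here. Mmp3, Mmp9, Mmp10, Mmp13, Il6, Srf, Spp1, Atf7, Ccdc85b, Junos and Prdx2 were named outside this rule, after their values were seen.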

Additional observations from a re-analysis of the deposited data

Results flagged for a closer look

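Fosl2 and Jund differed in their response between total RNA and footprints by the interaction test. The footprint change of Fosl2 exceeded its RNA change by 0.93 on the log2 scale and that of Jund by 1.27. Each call was kept under all 19 alternatives.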

How the results depend on the processing

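The 7 members kept their calls in total RNA and in footprints under every alternative run, except that Fosb was not tested with a minimum count of 30, which left 6. Fosl2 and Jund were the 2 members called in translational efficiency under all 19 alternatives. With upper-quartile factors the median of all genes shifted to −0.10 in footprints, and members rose relative to it. Reversals concerned uncalled values of translational efficiency: Junb was at −0.016 with TMM factors over the 12 libraries and between −0.10 and 0.25 when single libraries were left out, and Fos between −2.85 and 0.79. Their causes were not tested. Correlations of deviations for the same replicate number ran from −0.01 to 0.01 between HF and control libraries. Between footprint and RNA libraries they ran from −0.03 to 0.02. At this depth such low correlations do not settle whether replicates were paired. With the replicate block 7, 7 and 2 members and 3933, 3549 and 1085 genes were called in total RNA, footprints and translational efficiency. Of the list counts 15 of 225 moved by over 1.5 times. Family shares per codon were not run. Depth limits Fos and Fosb in control cells.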

Other observations

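Junos, a long non-coding RNA gene that begins beside Jun, was under the filter on low counts. It had 0, 0 and 2 counts in HF RNA and 16, 2 and 4 in control RNA, and 1, 0 and 0 in HF footprints and 10, 2 and 6 in control footprints. Prdx2, a peroxidase gene that neighbours Junb, was at −2.31 in total RNA (SE 0.22, edgeR adjusted p = 3.72e-14) and at −1.64 in footprints (SE 0.18, adjusted p = 7.71e-09), where Junb was at 2.45 and 2.49.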
